A study of Mus musculus with 13 samples.

Results

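Claudins, occludin and their zonula occludens (ZO) scaffolds form the tight junction, the belt near the apical edge of an epithelial sheet that limits what passes between cells. Claudins are membrane proteins whose outer loops set which ions and solutes cross, occludin is a membrane protein of the MARVEL family, and most claudin tails bind PDZ domains of the ZO scaffolds, which tie the belt to actin. In the mammary gland the belt lies between luminal cells and is known for holding milk components in the lumen. The genes were taken by symbol: Cldn1, Cldn3, Cldn4, Cldn6, Cldn7, Cldn12, Ocln, Tjp1 (ZO-1) and Tjp3 (ZO-3). All 9 of 9 were found among 23845 genes in the tables, and 8 had enough reads for a test, the exception being Cldn6.

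RNA of 13 lines grown out of primary mammary gland tumours of FVBN/J mice was sequenced, 6 with the label wild type (WT) and 7 with the label JNK knockout, in a study of JNK (c-Jun N-terminal kinase) in HER2-driven breast cancer. All lines had been passaged on collagen in low serum and then on plain dishes with serum, EGF and insulin. The labels do not give the transgene behind the tumours, how and in which cells JNK was removed, which JNK genes were targeted, the age of the mice, passage numbers or a batch. WT replicates 4 and 5 have titles that share a number and may come from the same mouse. P-values then measure the spread between lines only.

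The lines were sequenced to totals of 38298600 to 46689800 expected counts. Levels are given as CPM, reads scaled to a common library size. Mapk8 (JNK1) ran from 23.9 to 37.3 CPM over the WT lines and from 4.33 to 8.33 over the knockout lines (log2 fold change -2.37, SE 0.19, edgeR adjusted p = 9.11e-05). For Mapk9 (JNK2) the ranges were 55.0 to 73.1 and 8.90 to 24.7 CPM (log2 fold change -1.63, SE 0.19, edgeR adjusted p = 0.000905). Both were lower in every knockout line than in any WT line. Summed over each marker list, 6 epithelial markers held 5369 to 6316 CPM in WT lines and 2959.6 to 21788 CPM in knockout lines. That sum joins genes that moved in opposite directions. In every knockout line Krt18 was lower (log2 fold change -1.26), and Krt5 and Krt14 were higher (12.1 and 4.65), than in any WT line. Krt8 was also called lower (-0.97, edgeR adjusted p = 0.047), while Cdh1 and Epcam did not pass. The highest sum was that of knockout replicate 2, led by Krt5 at 12403 and Krt14 at 8337 CPM. The sum of 8 fibroblast markers was 12.2 to 480.3 CPM in WT lines and 3.05 to 56.0 in knockout lines. Endothelial and adipocyte markers summed to no more than 1.19 and 0.822 CPM. Immune markers summed to 2.49 to 18.9 CPM. The highest of them on average in both groups was Cd68, a lysosomal gene of macrophages, at 2.16 to 18.7 CPM. Csf1r, another immune marker, reached 6.32 CPM among WT lines and 1.62 CPM among knockout lines. In every line 1 of 7 immune and 2 of 5 adipocyte markers had 0 reads. In these bulk samples fewer expressing cells and less RNA per cell cannot be told apart.

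A pair of lines stood apart from their groups in the genes described here, so results that rest on them are given with and without them. Knockout replicate 2 was the lowest knockout line for 5 of the 8 tested genes and for 19 of 35 other tight junction genes, and the highest for 9 of those 35. WT replicate 3 was the lowest WT line for 6 of the 8 and for 12 of the 35.

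The promoters of the genes whose levels set lines or groups apart are shown first, as RefSeq gives them on GRCm38.p6, from 250 bases before to 30 bases after the annotated start and 5′ to 3′ on the gene's strand. Capitals mark matches, on either strand, to the E-box CACCTG (bound by SNAI1, ZEB1 and ZEB2), the AP-1 motif TGANTCA (bound by JUN and FOS dimers, JUN being the best known JNK substrate) and the cAMP response element TGACGTCA (bound by CREB, ATF and JUN dimers). Cldn12 is the gene that differed between the groups, Cldn3, Cldn4, Cldn7, Ocln and Tjp3 are those very low in knockout replicate 2, and Cldn6 is the gene present in few lines. Of several annotated windows, the first is shown for Ocln, Cldn12 and Tjp3 and the second for Cldn7.
Cldn3, chr5:134985964-134986243, plus strand: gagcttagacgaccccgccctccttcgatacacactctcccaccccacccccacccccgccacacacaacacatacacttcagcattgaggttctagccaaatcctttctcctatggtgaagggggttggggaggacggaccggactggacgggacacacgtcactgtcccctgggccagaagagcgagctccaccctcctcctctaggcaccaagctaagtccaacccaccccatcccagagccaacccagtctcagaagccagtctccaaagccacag
Cldn4, chr5:134946905-134947184, minus strand: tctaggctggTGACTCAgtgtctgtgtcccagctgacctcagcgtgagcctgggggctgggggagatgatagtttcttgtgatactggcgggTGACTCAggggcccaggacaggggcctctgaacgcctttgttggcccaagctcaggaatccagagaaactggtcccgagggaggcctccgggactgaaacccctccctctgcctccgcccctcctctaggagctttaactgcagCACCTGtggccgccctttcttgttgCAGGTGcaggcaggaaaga
Cldn7, chr11:69965171-69965450, plus strand: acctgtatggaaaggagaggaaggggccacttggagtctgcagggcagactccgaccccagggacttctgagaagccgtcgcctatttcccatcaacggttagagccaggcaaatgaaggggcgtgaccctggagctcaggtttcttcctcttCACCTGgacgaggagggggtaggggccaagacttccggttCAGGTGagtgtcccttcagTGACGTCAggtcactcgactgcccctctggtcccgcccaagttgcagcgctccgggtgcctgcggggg
Ocln, chr13:100552689-100552968, minus strand: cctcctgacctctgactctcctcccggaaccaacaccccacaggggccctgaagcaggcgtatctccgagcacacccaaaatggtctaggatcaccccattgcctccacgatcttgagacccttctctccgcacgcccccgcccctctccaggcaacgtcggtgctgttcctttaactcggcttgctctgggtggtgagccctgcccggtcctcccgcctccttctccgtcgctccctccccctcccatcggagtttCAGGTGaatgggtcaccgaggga
Tjp3, chr10:81291552-81291831, minus strand: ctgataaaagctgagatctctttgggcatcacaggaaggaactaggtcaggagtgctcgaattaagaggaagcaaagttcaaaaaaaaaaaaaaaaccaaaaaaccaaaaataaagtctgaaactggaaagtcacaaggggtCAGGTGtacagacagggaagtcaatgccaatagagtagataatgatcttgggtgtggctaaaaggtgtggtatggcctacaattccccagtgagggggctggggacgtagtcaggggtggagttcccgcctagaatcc
Cldn12, chr5:5514947-5515226, minus strand: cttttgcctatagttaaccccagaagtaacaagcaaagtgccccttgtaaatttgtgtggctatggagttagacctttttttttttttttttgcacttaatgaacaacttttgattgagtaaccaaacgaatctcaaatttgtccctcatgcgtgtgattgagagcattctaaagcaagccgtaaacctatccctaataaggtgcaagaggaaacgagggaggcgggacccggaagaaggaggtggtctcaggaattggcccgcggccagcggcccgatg
Cldn6, chr17:23679115-23679394, plus strand: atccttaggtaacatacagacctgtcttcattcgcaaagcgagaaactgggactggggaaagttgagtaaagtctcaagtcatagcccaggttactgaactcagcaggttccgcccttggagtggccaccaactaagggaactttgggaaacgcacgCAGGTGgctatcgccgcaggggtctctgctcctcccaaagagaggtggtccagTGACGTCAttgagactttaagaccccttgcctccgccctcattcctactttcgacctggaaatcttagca
The Cldn4 window held both TGACTCA matches of the set, with first bases 240 and 158 bases before the start, and CACCTG matches 14 bases before and 11 bases after it. The Cldn7 window shown held CACCTG at 97 and 57 bases and TGACGTCA at 38 bases before the start, while the other Cldn7 window (chr11:69964529-69964808) held none of these motifs. The Cldn6 window held CACCTG at 93 bases and TGACGTCA at 40 bases before the start. The Ocln window shown held CACCTG 7 bases after the start, and the Tjp3 window shown held it 108 bases before the start, while the Cldn3 window and the Cldn12 window shown held none of these motifs. Over all 14 annotated windows of the 9 genes, CACCTG was in 7 windows (5 genes: Cldn4, Cldn6, Cldn7, Ocln and Tjp3), against 19.05% of 32851 RefSeq windows of the same length. TGANTCA was in 1 of 14 windows against 7.46%, TGACGTCA in 2 of 14 against 1.74%, the GC box GGGCGG, which is not capitalised, in 10 of 14 against 34.69%, and AACCGGTT, a Grainyhead motif, in 0 of 14 against 0.13%. Several windows of a gene overlap, and a match of letters is no evidence of binding.

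Compared between genes on the length-scaled TPM scale, the lines were rich in Cldn4, Cldn3 and Cldn7. In WT lines the mean levels in TPM (± SD, n = 6) were 804 ± 395 for Cldn4, 787 ± 174 for Cldn3, 401 ± 39.1 for Cldn7, 65.8 ± 15.7 for Tjp1, 59.2 ± 36.7 for Cldn1, 42.3 ± 8.27 for Ocln, 24.3 ± 5.17 for Cldn12 and 10.1 ± 7.51 for Tjp3, with Cldn6 at 0.03 in replicate 4 and 0 in the others. In knockout lines the mean levels in TPM (± SD, n = 7) were 462 ± 296 for Cldn4, 425 ± 234 for Cldn3, 236 ± 156 for Cldn7, 55.6 ± 17.1 for Tjp1, 38.4 ± 9.02 for Cldn12, 26.9 ± 15.6 for Ocln, 21.0 ± 20.2 for Tjp3 and 20.8 ± 18.4 for Cldn1, while Cldn6 was 311 in replicate 3 and 14.8 or less in the others. Neighbours in this order were often not separated by the spread. Cldn4 exceeded Cldn3 in 3 of 6 WT and 5 of 7 knockout lines, and Tjp1 exceeded Cldn1 in 4 of 6 WT lines. Cldn3 exceeded Cldn7 in every one of the 13 lines. Among the 23 genes listed under a Cldn symbol and number, 8 were tested, 6 had at least 10 reads in all lines and 8 had fewer than 10 in every line.

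**Figure D1:**
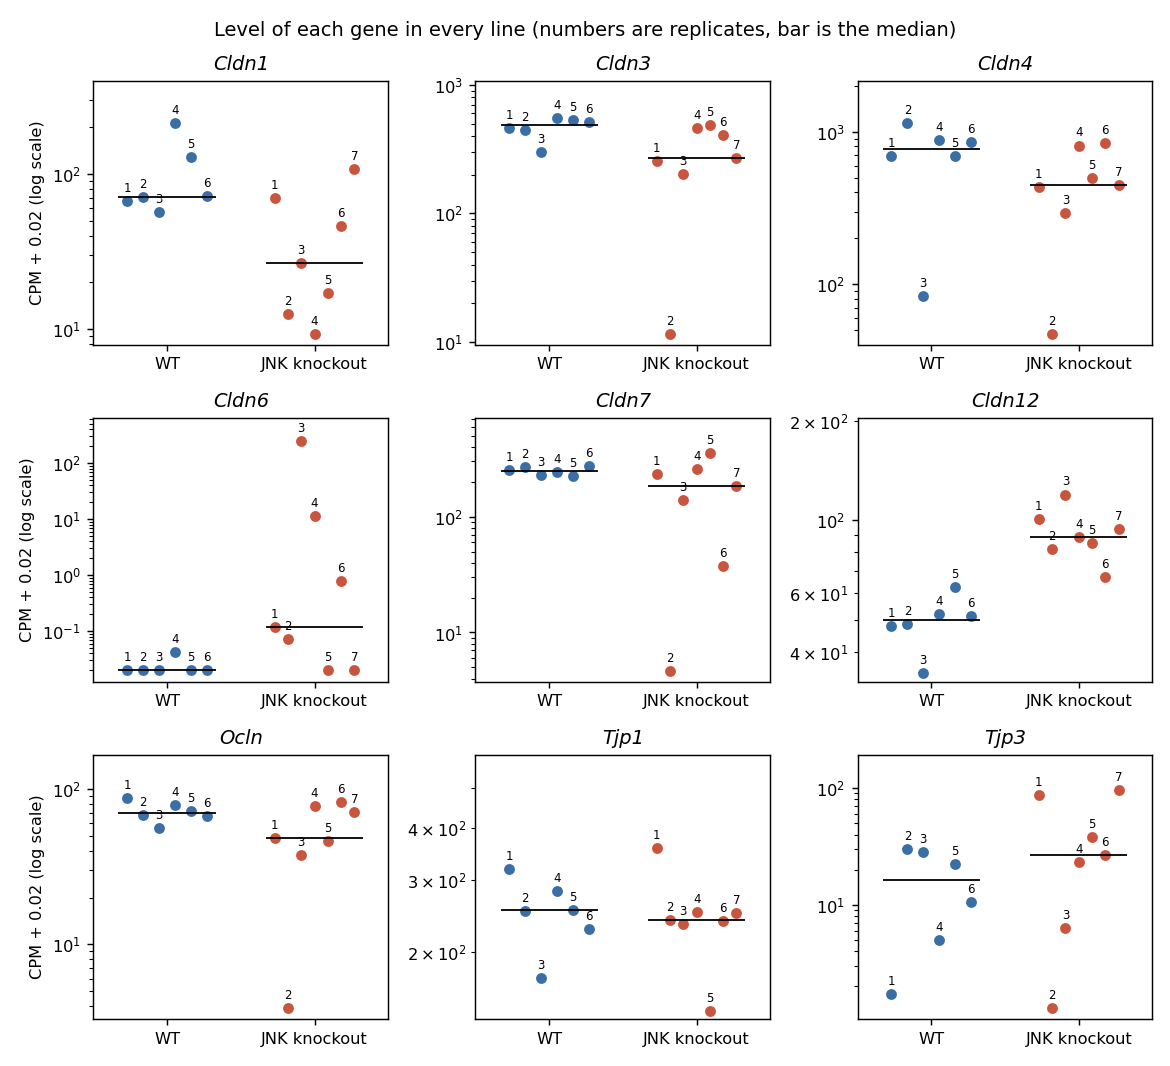
Level of each of the 9 genes in every line (y axis, CPM + 0.02 on a log scale; numbers are replicate numbers and the bar is the group median). Cldn12 is the gene in which all 7 knockout lines sit above all 6 WT lines, knockout replicate 2 sits far below its group for Cldn3, Cldn4, Cldn7, Ocln and Tjp3, and Cldn6 is high in knockout replicate 3.

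Between the groups, 1 of the 8 tested genes passed edgeR's quasi-likelihood test after Benjamini-Hochberg adjustment over all 13058 genes tested (adjusted p under 0.05), and it was higher in the knockout lines. Of all genes tested, 8.51% passed, 4.33% as higher and 4.17% as lower. A count of 1 in 8 is near that background and is no result about the set. The groups did not overlap in CPM for 1 of the 8, against 4.05% of all genes. Of the 8, 6 had a negative and 2 a positive log2 fold change, with a median of -0.48 against 0.01 for all genes, and 2 had an unadjusted p under 0.05, against 3431 of 13058. On the TPM scale the median of all genes shifted by -0.20 (log2(TPM + 1)), and the calls were 286 higher and 998 lower in place of 566 and 545, so 22.3% in place of 50.9% of calls were higher. Log2 changes on that scale are to be read against this shift.

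The gene that passed was Cldn12 (chromosome 5, 5505015 to 5514976, GRCm38), which encodes a claudin without the usual PDZ-binding tail and is linked to calcium passage in the gut and kidney. It lay between 34.5 and 62.6 CPM in WT lines (median 50.0) and between 67.0 and 119.5 CPM in knockout lines (median 88.6). The highest WT line was replicate 5 and the lowest knockout line replicate 6, so all 7 knockout lines exceeded every WT line. The means were 49.4 ± 9.08 CPM (SD, n = 6) and 90.9 ± 16.4 CPM (SD, n = 7). The log2 fold change was 0.88 (SE 0.15, 95% interval 0.55 to 1.21) or 1.84-fold, with adjusted p = 0.00676 by edgeR's quasi-likelihood test. Cldn12 passed in each of the 13 fits that left out 1 line, with log2 fold changes of 0.79 to 0.96. It also passed without WT replicate 3 and knockout replicate 2 (0.82, adjusted p = 0.0101). In TPM the groups overlapped: knockout replicates 5 and 6 were at 26.7 and 30.6, below WT replicate 5 at 31.8, while the other 5 knockout lines exceeded every WT line. The knockout mean was 38.4 ± 9.02 TPM against 24.3 ± 5.17 in WT, and the call held on that scale at 0.63 (adjusted p = 0.044). Of 6 tested genes within 500 kb of Cldn12, edgeR called 0 and DESeq2 called 1 (limma-voom 0). An unadjusted p under 0.05 was found for 1 of the 6, against 3431 of all 13058 genes. The nearest, Gtpbp10 at 22478 bases, had a log2 fold change of 0.11 (adjusted p = 0.64), and Cdk14 at 124764 bases one of -0.71 (adjusted p = 0.061).

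Cldn3 and Cldn4 encode barrier claudins that also serve as receptors of the Clostridium perfringens enterotoxin, and they lie 39280 bases apart on chromosome 5 (Cldn3 at 134986214 to 134987476, Cldn4 at 134945123 to 134946934). Cldn3 was between 300.96 and 551 CPM in WT lines (median 486) and between 11.6 and 483 CPM in knockout lines (median 269). The groups overlapped, with 4 of 7 knockout lines below every WT line. Its means were 467 ± 91.9 and 299 ± 167 CPM (SD, n = 6 and 7), and the log2 fold change of -0.65 (SE 0.52, 95% interval -1.76 to 0.47) did not pass (edgeR adjusted p = 0.45). Cldn4 was between 84.3 and 1143 CPM in WT lines (median 773) and between 47.3 and 845 CPM in knockout lines (median 449). The groups overlapped, and the WT lines other than replicate 3 started at 689.6 CPM. Its means were 723 ± 354 and 482 ± 279 CPM (SD, n = 6 and 7); the log2 fold change was -0.59 (SE 0.56, 95% interval -1.80 to 0.63, edgeR adjusted p = 0.54). Without WT replicate 3 and knockout replicate 2 the log2 fold changes were -0.53 (SE 0.22) for Cldn3 and -0.62 (SE 0.27) for Cldn4, with adjusted p = 0.157 and 0.168 in edgeR's test. Removing that pair narrowed the errors of both genes and left both short of the threshold. Wbscr25 overlaps Cldn3 and held at most 0.838 CPM, and the sources used here do not state whether reads were counted by strand.

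Cldn7 (chromosome 11, 69964779 to 69967886) encodes a claudin found also along the lateral membrane, where it binds EpCAM. It varied least of these claudins among WT lines, between 225 and 274 CPM (median 249). Knockout lines ran from 4.64 to 357 CPM (median 184), with replicate 5 above every WT line and 4 of 7 below. In TPM, replicate 5 was at 399.8, below the WT maximum of 442.9, so 0 knockout lines exceeded every WT line and 5 were below all. In replicate 5 the shortest 20% of genes had a median log2 difference of 0.68 from the other knockout lines. Cldn7 is at percentile 13.1 of gene length, and the part of length in its value was not tested. The means were 249 ± 20.8 and 173 ± 124 CPM (SD, n = 6 and 7); the log2 fold change was -0.52 (SE 0.61, 95% interval -1.83 to 0.79, edgeR adjusted p = 0.62). Without knockout replicate 2 it was -0.30 (SE 0.37, edgeR adjusted p = 0.63). Its nearest tested neighbour, Elp5, an Elongator subunit 338 bases away, was higher in every knockout line than in any WT line (log2 fold change 0.59, edgeR adjusted p = 0.022).

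Cldn1 (chromosome 16, 26356645 to 26371839) encodes the claudin that mouse skin needs to hold water. WT lines held between 56.7 and 213 CPM (median 71.2), with replicates 4 and 5, the lines that share a title number, highest at 213 and 129. Knockout lines held between 9.27 and 107 CPM (median 26.7), with 5 of 7 below every WT line and replicates 1 and 7 within the WT range at 70.2 and 107. The means of 101 ± 60.3 and 41.4 ± 36.2 CPM (SD, n = 6 and 7) gave a log2 fold change of -1.29 (SE 0.55, 95% interval -2.48 to -0.10). It did not pass after adjustment in edgeR's test (adjusted p = 0.16). Nor did it pass under any of the 12 other settings or 13 fits without 1 line, where adjusted p ran from 0.0541 to 0.316.

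Cldn6 (chromosome 17, 23679348 to 23682446) is a claudin of embryonic and fetal epithelia. Summed over the 6 WT lines it had 1 read. Knockout replicate 3 had 10270 reads (247 CPM), replicate 4 had 454 (11.5 CPM) and replicate 6 had 36 (0.779 CPM), and the other 4 knockout lines had 0 to 4 reads. It thus had at least 10 reads in 3 of 13 lines, fewer than the test needs. With no filter on low counts (18208 genes tested) edgeR fitted 12.4 on the log2 scale (SE 3.08, adjusted p = 0.032), a value that depends on the small count added to each library. Its paralog Cldn9, 138 bases away, had at most 13 reads in any line. RSEM shares reads that match both genes, so values of the pair are uncertain.

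Ocln (chromosome 13, 100496504 to 100552718), which encodes occludin, was between 55.6 and 87.9 CPM in WT lines (median 69.8) and between 3.85 and 82.8 in knockout lines (median 48.1). Of the knockout lines, 4 were below every WT line and 3 within the WT range. The means were 71.5 ± 11.01 and 52.4 ± 27.6 CPM (SD, n = 6 and 7); the log2 fold change was -0.45 (SE 0.45, 95% interval -1.41 to 0.51, edgeR adjusted p = 0.55). Without knockout replicate 2 it was -0.24 (SE 0.20, edgeR adjusted p = 0.48).

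Tjp1 (chromosome 7, 65296165 to 65527850) encodes ZO-1, the scaffold on which claudin strands assemble. It lay between 174 and 318 CPM in WT lines (median 253) and between 145 and 358 in knockout lines (median 239.9). The groups overlapped over most of their range. The means were 251 ± 49.0 and 245 ± 61.9 CPM (SD, n = 6 and 7); the log2 fold change was -0.04 (SE 0.19, 95% interval -0.44 to 0.36, edgeR adjusted p = 0.92). Its sign turned without WT replicate 1 (0.04) and without knockout replicate 5 (0.06). Knockout replicate 5, the lowest line, had fewer reads in long genes: with genes ranked by length, the median log2 difference from its group in the longest 20% minus that in the shortest 20% was -1.23, against -0.29 to 0.40 in the other lines. Tjp1 is at percentile 93.5 of gene length, and the part of length in its value was not tested.

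Tjp3 (chromosome 10, 81273188 to 81291581) encodes ZO-3, a scaffold of epithelia that mice can do without. It ranged widely within both groups, from 1.70 to 30.1 CPM in WT lines (median 16.4) and from 1.28 to 96.2 in knockout lines (median 26.8). In CPM, knockout replicates 1, 5 and 7 exceeded every WT line, and replicate 2 was below all. In TPM, replicate 5 was at 14.7, below the WT maximum of 19.0, and 2 knockout lines exceeded every WT line. The means were 16.3 ± 12.3 and 39.8 ± 37.6 CPM (SD, n = 6 and 7); the log2 fold change was 1.28 (SE 0.84, 95% interval -0.52 to 3.09, edgeR adjusted p = 0.35). Apba3 overlaps Tjp3, and without stated strand use their reads cannot be told apart.

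**Figure D2:**
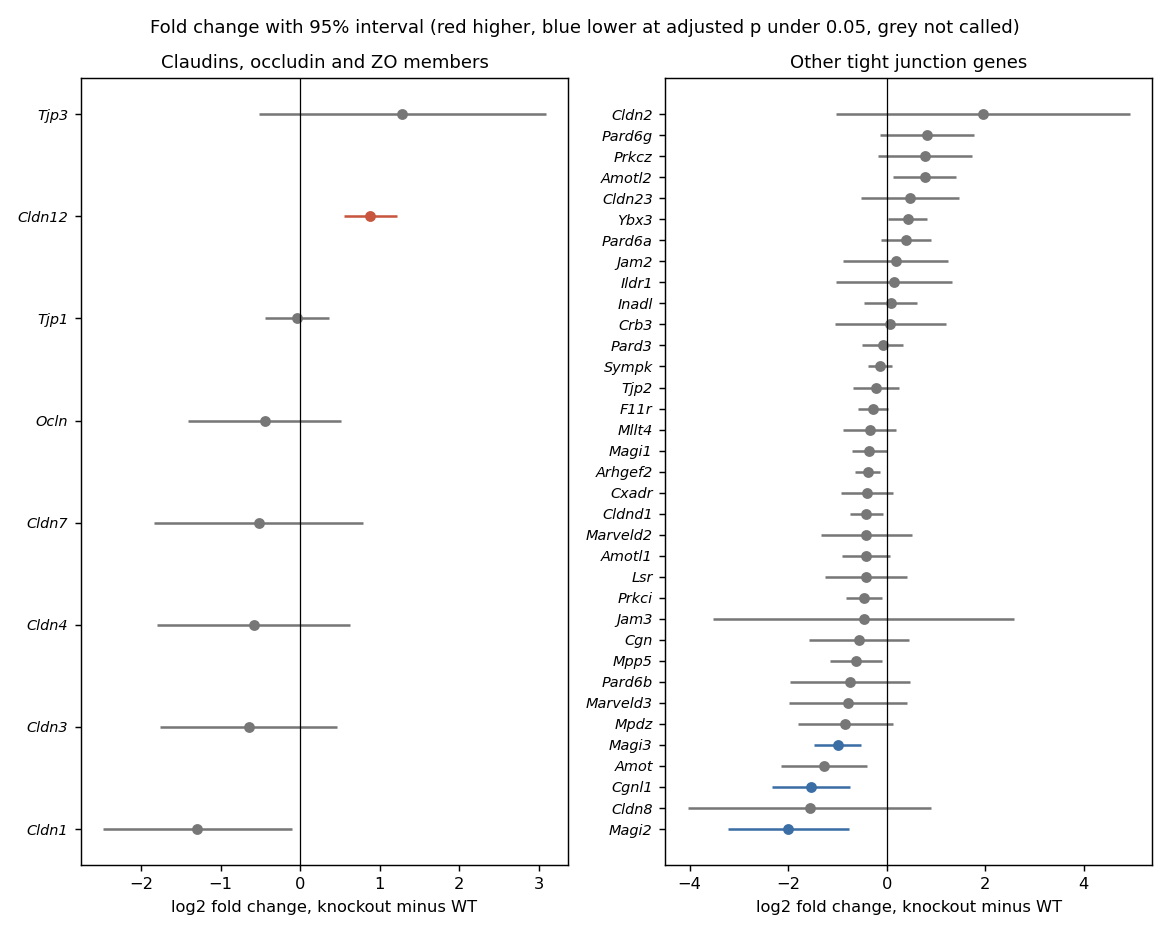
Log2 fold change, knockout minus WT (x axis), with its 95% interval for the 8 tested members (left) and 35 other tight junction genes (right). Cldn12 is the member that passed, at 0.88, and Magi3, Cgnl1 and Magi2 are the other genes that passed, all lower.

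The make-up of the claudin pool was examined as the share of each gene in the TPM summed over these 23 genes. WT lines held 947 to 2565 TPM (median 2209) and knockout lines 112 to 2028 (median 1228), with WT replicate 3 and knockout replicate 2 the lowest of their groups. Without that pair the ranges were 2106 to 2565 and 1188 to 2028 and did not overlap, a description of lines picked after their values were seen. Cldn3, Cldn4 and Cldn7 together made up 93.5 to 96.9% of claudin TPM in WT lines. In knockout lines they made up 60.7 to 96.5%, with replicates 2 and 3 at 60.7 and 68.0% and the other 5 at 90.7% or above. The share of Cldn12 was 0.939 to 1.65% in WT lines and 1.86 to 30.8% in knockout lines, so the groups did not overlap in this share. In knockout replicate 2, which had the highest share, the level of Cldn12 itself was 34.5 TPM and lay within the knockout range. In knockout replicates 5 and 6 Cldn12 was at 26.7 and 30.6 TPM, below WT replicate 5 at 31.8. Their summed claudin TPM was 1284 and 1645, against 2212 in that WT line.

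**Figure D3:**
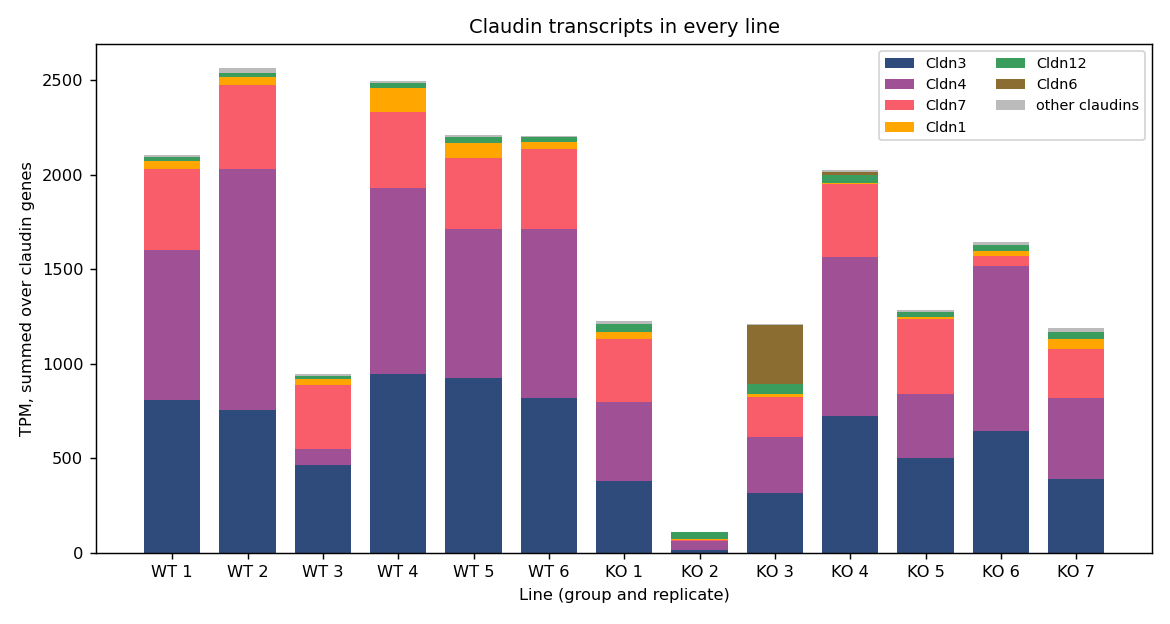
TPM summed over claudin genes in every line (y axis), split by gene. The WT bars other than replicate 3 lie between 2106 and 2565, knockout replicate 2 reaches 112, and in knockout replicate 3 Cldn6 takes 25.7% of the bar.

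Knockout replicate 2 was low in Cldn7 (4.64 CPM, log2 ratio to the median of the other knockout lines -5.49), Cldn3 (11.6 CPM, -4.88), Tjp3 (1.28 CPM, -4.65), Ocln (3.85 CPM, -3.95) and Cldn4 (47.3 CPM, -3.32). Cldn1 was lower there too but by less (12.5 CPM, -1.55), and knockout replicates 4 and 5 were also low in Cldn1 (-1.98 and -1.09). Knockout replicate 2 was not low in Tjp1 (239.9 CPM, -0.02) or Cldn12 (81.6 CPM, -0.16). The TPM ratio of Tjp1 to Ocln was 27.6 in this line and between 1.27 and 3.28 in the other 12. Genes of the tricellular corners were low there too, with Marveld2 (tricellulin) at 3.41 CPM against 40.8 to 69.8 in the other knockout lines and Lsr (angulin-1, which recruits tricellulin) at 15.2 against 123 to 219. Beside these stood the transcription factors ZEB1 and ZEB2, which repress epithelial genes: Zeb1 was at 80.0 CPM in this line and at most 13.1 in the other 12, and Zeb2 at 50.0 and at most 13.7. Cdh1 (E-cadherin) was 92.3 CPM against 311 to 714 in the other knockout lines, whereas the basal keratins Krt14 and Krt5 were at 8337 and 12403 CPM, the highest of all lines. Both keratins were higher in every knockout line than in any WT line, so their presence is not particular to replicate 2. Krt14 was at least 313 CPM in knockout lines and at most 232 in WT lines, and Krt5 at least 84.2 and at most 1.01. The sum of 8 fibroblast markers, 56.0 CPM, was also the highest of the knockout lines, with Col3a1 at 27.7 and Pdgfra at 20.0 CPM, Col1a1 at 3.41, Pdgfrb at 3.35, Dcn at 0.891, Col1a2 at 0.498 and Thy1 at 0.052 CPM, and Lum at 0 reads. The part of these genes in the claudin levels was not tested.

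WT replicate 3 was low in Cldn4 (84.3 CPM against 689.6 to 1143 in the other WT lines, log2 ratio to their median -3.34) and less so in Cldn3 (300.96 against 442 to 551, -0.76). Cldn7 was not low there (227 CPM, within 225 to 274). The ratio of Cldn4 to Cldn3 in TPM was 0.184 in this line and 0.852 to 1.69 in the other WT lines. This line had the highest fibroblast sum, 480.3 CPM, where the lowest WT line had 12.2 and knockout lines 56.0 or less. The sum was led by Col1a1 at 184 CPM (median of WT lines 7.54) and Col1a2 at 160.0 CPM (3.15). The Epcam level of WT replicate 3 was 1407 CPM, the highest of all lines. The part of these markers in the Cldn4 level was not tested. Knockout replicate 6 was low in Cldn7 alone among the abundant claudins (37.5 CPM, -2.47), which made up 3.43% of its claudin TPM. Its Cldn3 and Cldn4 were 410.4 and 845 CPM, the latter the highest of the knockout lines. The same line had 933 reads of Cldn2, which forms a cation pore in leaky epithelia, where no other line had more than 85.

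**Figure D4:**
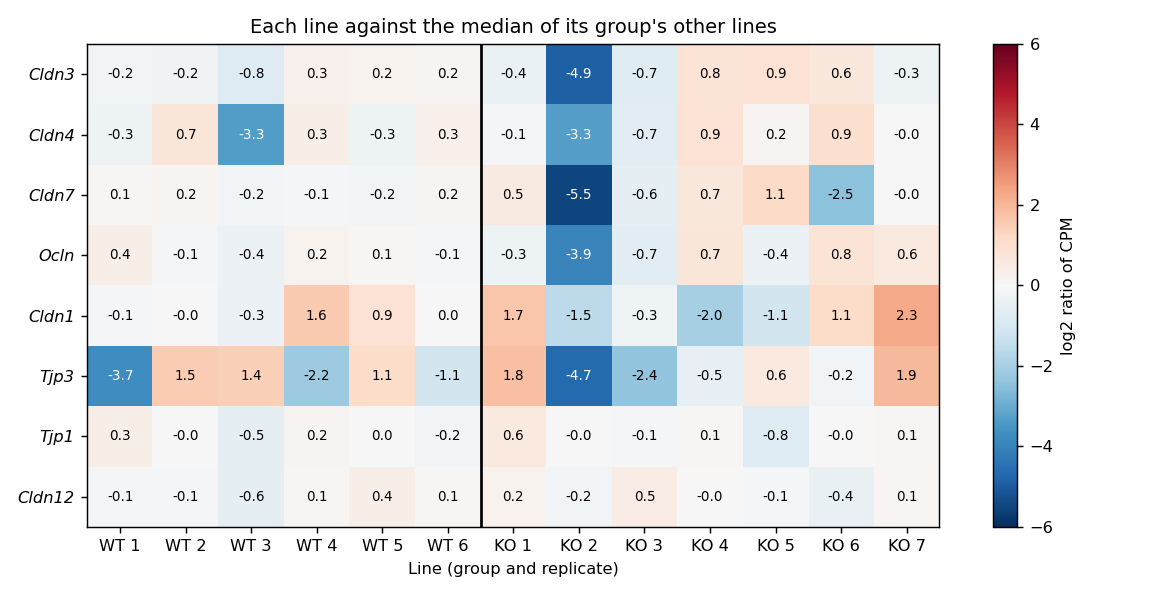
Log2 ratio of each line's CPM to the median of the other lines of its group for the 8 tested genes (colour and printed value; columns are lines, rows are genes). Knockout replicate 2 is low in Cldn3, Cldn4, Cldn7, Ocln and Tjp3, WT replicate 3 in Cldn4, and knockout replicate 6 in Cldn7.

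Among the genes that build the rest of the junction, the plaque genes Magi3, Cgnl1 and Magi2 were lower in knockout lines. Of 53 other tight junction genes, 35 were tested, and edgeR called 0 higher and 3 lower, with 2 higher and 9 lower at an unadjusted p under 0.05 (DESeq2 0 and 5, limma-voom 0 and 2). The share called, 3 of 35, is near the 8.51% of all genes called in either direction and is no result about the list. Among all 13058 genes, 3431 had an unadjusted p under 0.05 in either direction, DESeq2 called 1130 higher and 977 lower, and limma-voom 443 and 517. Of the 35, 24 had a negative log2 fold change and the median was -0.38. The lists tested held 23 plaque genes, 4 other claudins or claudin-domain genes and 8 other membrane proteins, and a difference between these lists was not tested. Magi3, a scaffold of the membrane-associated guanylate kinase family, was 69.0 to 115 CPM in WT lines and 25.6 to 60.8 in knockout lines. The groups did not overlap, and the log2 fold change was -0.99 (SE 0.22, edgeR adjusted p = 0.0176). Cgnl1 (paracingulin, a plaque protein related to cingulin) was 316 to 698 CPM in WT lines and 70.5 to 465 in knockout lines. Of 7 knockout lines 6 were below every WT line, and the log2 fold change was -1.54 (SE 0.37, edgeR adjusted p = 0.0223). Magi2, a relative of Magi3, was 1.08 to 15.05 CPM in WT lines and 0.601 to 1.55 in knockout lines (log2 fold change -1.999, SE 0.57, edgeR adjusted p = 0.0461). Magi2 rested on WT replicate 2 at 15.05 CPM, was -1.10 without it (adjusted p = 0.113) and passed in 2 of 13 fits without 1 line, while Magi3 and Cgnl1 passed in all 13.

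The most abundant genes of these lists did not pass edgeR's test. Among membrane proteins, F11r (junctional adhesion molecule A) was 168 ± 26.5 CPM in WT and 139 ± 24.5 in knockout lines (SD, n = 6 and 7), a log2 fold change of -0.27, and Lsr 191 ± 16.2 and 142 ± 64.2 CPM (-0.42). In the plaque, Ybx3, a Y-box factor that ZO-1 holds at the junction, was 364 ± 89.1 and 489 ± 88.1 CPM (0.43), and the angiomotin-like Amotl2 223 ± 93.4 and 381 ± 127 CPM (0.77). Of the other claudins, Cldnd1 was 73.1 ± 13.6 and 55.0 ± 10.5 CPM (-0.41), and Cldn23 6.85 ± 2.40 and 9.50 ± 5.70 CPM (0.47). Their adjusted p ran from 0.113 for Cldnd1 to 0.547 for Cldn23.

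Partners and regulators of claudins were read in the same fit. Among all 13058 genes tested, 3431 had an unadjusted p under 0.05 in either direction. DESeq2 called 1130 of them higher and 977 lower, and limma-voom 443 and 517. The counts of the lists below are to be read beside these. Of 6 genes of epithelial proteins that bind or protect claudins, edgeR called 0, 1 was lower at an unadjusted p under 0.05, and DESeq2 and limma-voom also called 0. In this list Epcam was 855 ± 396 CPM in WT and 415 ± 201 in knockout lines (SD, n = 6 and 7; log2 fold change -1.04, edgeR adjusted p = 0.17), and Spint2, an inhibitor of the protease that cuts EpCAM, 408 ± 92.8 and 419.7 ± 147 CPM (0.04, edgeR adjusted p = 0.93). Of 10 epithelial regulators edgeR called 1 higher, Grhl3, a Grainyhead factor of the skin barrier, against 4.33% of all genes, and 5 were higher at an unadjusted p under 0.05 (DESeq2 called 3 higher, limma-voom 1). Grhl3 was 0.754 to 4.01 CPM in WT lines and 8.40 to 38.7 in knockout lines with no overlap (log2 fold change 3.02, SE 0.51, edgeR adjusted p = 0.00515). In knockout replicate 2, where Cldn3 and Cldn7 were lowest, Grhl3 was at 17.9 CPM, and its relative Grhl2, an activator of claudin genes, at 10.2 CPM against 74.5 to 141 in the other knockout lines. The splicing regulator Esrp1 was 214 ± 74.7 and 159.8 ± 73.4 CPM (-0.42, edgeR adjusted p = 0.57) and the factor Klf5 43.0 ± 15.1 and 97.2 ± 45.3 CPM (1.18, edgeR adjusted p = 0.0601). Of 7 repressors of epithelial genes edgeR called 0, with 1 higher at an unadjusted p under 0.05, while DESeq2 called 1 higher and 1 lower and limma-voom 1 lower. Twist1 was 27.6 ± 9.81 and 20.3 ± 17.0 CPM (-0.44, edgeR adjusted p = 0.70), and Snai1 8.49 ± 3.30 and 12.7 ± 9.52 CPM (0.58, edgeR adjusted p = 0.45).

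The genes whose pattern over the 13 lines was most like each member were found by Pearson's r of log2 CPM after each group's mean had been subtracted, over 10651 genes with at least 5 CPM on average. Lines share depth and culture, and r is a description. Each r given is among the highest of 10651 over only 13 lines, and how high the best of so many would be by chance was not tested. Values without knockout replicate 2 use the same picked genes and are no separate check. Rank correlations of the same pairs ran from 0.66 (Smcr8 with Tjp1) to 0.97 (Ell3 with Cldn3). Cldn3 was most like Ell3 (r = 0.99) and Rhpn2 (0.98), Cldn7 most like Ap1m2 (0.99) and Ldhb (0.97), and Ocln most like Spint1 (0.99) and 4930412O13Rik (0.99). Cldn4 was most like Wnt7b (0.97) and Bst1 (0.94), and Tjp3 most like Bspry and Ttc22 (both 0.96). Some of these values lean on knockout replicate 2: without it r was 0.77 for Rhpn2 and 0.90 for Ell3 with Cldn3. With Ocln it was 0.84 for 4930412O13Rik and 0.91 for Spint1, and with Cldn7 0.90 for Ldhb and 0.96 for Ap1m2. Others moved less, with 0.94 for Wnt7b and 0.90 for Bst1 with Cldn4, and 0.93 for Bspry and 0.95 for Ttc22 with Tjp3. Cldn12 was most like Patz1 (0.88) and Foxj1 (0.87), Cldn1 most like Pdzrn3 (0.91) and Gclc (0.90), and Tjp1 most like Nlk and Smcr8 (both 0.91), and for these r without that line was between 0.88 and 0.91. No gene was among the 2 nearest of more than 1 member.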

How the data were processed

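The expected counts per gene come from RSEM, run by the authors on reads trimmed by cutadapt. Per the submitters' processing notes the builds were mm10 and GRCm38. No source used here states versions, aligner, annotation or strand use. TPM of the same genes and lines, deposited by the authors, were used to compare levels between genes.

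Expected counts were rounded to whole numbers, filtered with filterByExpr, scaled by TMM and tested with edgeR's quasi-likelihood F test (edgeR 4.0.16, R 4.3.3) with the group as the only term and Benjamini-Hochberg adjustment over 13058 genes, threshold 0.05. The standard error (SE) is approximate (log2 fold change over the root of F). CPM refers to TMM-scaled libraries. Log2 fold changes are knockout minus WT. Replicate numbers follow accession order and pair nothing. DESeq2 1.42.0 and limma 3.58.1 (voom, and log2(TPM + 1) or log2(TPM + 0.1)) were alternatives, with other scalings, filters and lines left out. The tests were checked on simulated data with the same spread between lines for every gene, smaller than in these data, and no outlying lines. There DESeq2 made a larger share of false calls than the limit set for edgeR and limma-voom. The share of false calls of each test in these data is not known, and the larger counts of DESeq2 are less certain.

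The members and gene lists were chosen with earlier results of these data known. Beyond the 9 members, the text names called genes of the lists, the 2 tested genes of each list with the highest mean TPM and the 2 genes most like each member. Other genes (Zeb1, Zeb2, Grhl2, Marveld2, Cdh1, Cldn2, keratins, markers, neighbours) were named after their values were seen. In the tables Patj is listed as Inadl and Afdn as Mllt4. Promoter sequences and gene positions are from RefSeq (GRCm38.p6), with promoters found for 9 of 9 members.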

Additional observations from a re-analysis of the deposited data

Results flagged for a closer look

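Of 49 sets of values, each a gene in 1 group, 10 had a line whose gap to the nearest other line was a large part of the group's whole range on the log2 CPM scale. Chance gives about 1 in 20 for a single set. The sets share the same 13 lines and some genes vary together, so the count of 10 cannot be judged against that rate. Knockout replicate 2 was the line in 6 of the 10. Its values, lower than those of the other knockout lines, were 11.6 CPM for Cldn3, 47.3 for Cldn4, 3.85 for Ocln, 15.2 for Lsr, 40.8 for Epcam (266 to 608 in the other knockout lines) and 15.01 for Esrp1 (124 to 221 in the others). WT replicate 3 was low in Cldn3 (300.96 CPM) and Cldn4 (84.3 CPM). WT replicate 2 was low in Cgnl1, at 316 CPM against 577 to 698 in the other WT lines, and knockout replicate 5 in Klf5, at 23.8 CPM against 73.1 to 169.8 in the other knockout lines. The causes of these values were not tested.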

How the results depend on the processing

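Cldn12 passed under all 12 other settings and in all 13 fits without 1 line, with adjusted p between 7.89e-06 and 0.0442. With no filter on low counts 2 members passed, Cldn6 and Cldn12. The log2 fold changes of Cldn1, Cldn3, Cldn4, Cldn7, Ocln and Tjp3 kept their sign, and none passed, in all of these fits. Tjp1 turned from -0.04 to 0.043 without WT replicate 1 and to 0.059 without knockout replicate 5, and the fits without 1 line ranged from -0.14 to 0.059. Without 1 line, genes called higher ranged from 324 to 649 and lower from 316 to 592, members called from 1 to 1 and other tight junction genes from 2 to 4. The counts over all genes moved by over 1.5 times without WT replicate 1 (374 higher), knockout replicate 1 (329 higher, 316 lower), replicate 3 (375 higher) and replicate 7 (324 higher, 326 lower). DESeq2's test gave 1130 higher, 977 lower and 5 other tight junction genes, log2(TPM + 1) gave 286 and 998, log2(TPM + 0.1) gave 322 and 981, and an adjusted p under 0.01 left 96, 116 and 0. The cause of these shifts was not tested. Leaving out WT replicate 3 and knockout replicate 2 together, chosen after seeing the data, gave 492 higher, 522 lower, 1 member (Cldn12) and 4 other tight junction genes. No paired analysis was possible because replicate numbers follow accession order and the labels pair no lines. The intervals of Cldn3, Cldn4, Cldn7 and Ocln include both no change and a log2 fold change below -1. Without knockout replicate 2 the SE was 0.23 in place of 0.52 for Cldn3 and 0.20 in place of 0.45 for Ocln.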
